A study of Rattus norvegicus with 13 samples.

Results

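The miRNAs described here are those of the imprinted Dlk1-Dio3 region that lie after its block of snoRNA genes. They were taken by name from the rat mature miRNAs of a table of small RNA counts, as every arm of 30 numbered miRNA genes and families, and 36 of 460 entries matched. All 36 names matched a mature sequence in RefSeq (build GRCr8), from 28 hairpins. The abundance filter left 29 of them for testing, and 7 (miR-134-3p, miR-299a-3p, miR-329-5p, miR-376a-3p, miR-485-5p, miR-495 and miR-758-3p) were too low.

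In this region the paternal chromosome expresses protein genes, among them Dlk1 and Dio3, and the maternal chromosome expresses long non-coding RNAs (Meg3, Rian and Mirg) from which the snoRNAs and miRNAs are cut. The miRNAs after the snoRNA block form the largest part of the cluster, are abundant in embryo, placenta and brain, and are low in most adult tissues. A miRNA finds its target mRNAs mainly through its seed, bases 2 to 8 from the 5′ end, and represses them.

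The 13 kidney libraries came from female rats of the strain WAG/RijCmcr (labelled Wistar), 11 to 12 weeks old and about 155 g when irradiated. The labels do not say whether each library is a separate rat, so p-values measure the spread between these libraries. Controls (n = 4) were age-matched and received 0 Gy. In the irradiated group (n = 4) a dose of 13 Gy (X-rays, 320 kVp, 1.75 Gy/min) reached all of the body but a shielded hind limb, which is called leg-out PBI. A further group (n = 5) had this exposure and, from day 7 to the end, drinking water with the ACE inhibitor lisinopril at about 24 mg m-2 daily. Below, "under lisinopril" and "under the drug" mean this irradiated group. None of the groups had lisinopril without irradiation. In comparisons of the lisinopril group with control, irradiation and drug therefore cannot be told apart. Supportive care was saline at 40 ml per kg on days 3 to 7 and enrofloxacin at 10 mg per kg up to day 14; the protocol does not say whether controls had it. All kidneys were taken on day 35. The RNA was from kidney tissue in bulk, so fewer cells of a type and less RNA per cell cannot be told apart.

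Library totals over rat miRNAs were 1194175 counts in control library 2 and 4885082 to 11095939 in the other 12 libraries. A count of 3, taken as the lowest detectable level, was worth 3.19 CPM (TMM-scaled counts relative to the library total) in control library 2 and 0.289 to 0.561 CPM elsewhere. The control mean of 18 of the 36 miRNAs lay under the floor of control library 2, which held 5 of them (miR-329-5p, miR-376c-3p, miR-382-3p, miR-485-3p and miR-668) at 0. Floors, and the Wilson intervals given for shares, cover counting error only. Kidney tubule miRNAs (9 entries) summed to 426687 to 738150 CPM in controls, 346597 to 479495 CPM after irradiation and 443743 to 574298 CPM in the lisinopril group. The control maximum was that of control library 2, and the other controls held 426687 to 575787 CPM. High sums in every library go with the kidney label. The ranges overlapped, but irradiated libraries 1 to 3 (394155, 346597 and 368735 CPM) lay below every control.

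Shown here are sense-strand miRNAs that passed a test, with miR-410-3p and miR-381-3p, which are abundant but did not pass; capitals mark the seed, and miR-369-5p follows with its opposite-strand partner.
miR-541-5p: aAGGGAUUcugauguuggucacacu
miR-411-5p: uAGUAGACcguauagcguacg
miR-379-5p: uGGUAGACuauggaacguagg
miR-410-3p: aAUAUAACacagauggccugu
miR-300-3p: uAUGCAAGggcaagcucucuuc
miR-381-3p: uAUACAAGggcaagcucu
miR-134-5p: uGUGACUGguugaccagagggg
miR-494-3p: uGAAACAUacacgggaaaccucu
miR-380-3p: uAUGUAGUaugguccacaucu
The 36 sequences carried 36 different seeds, so that no pair of them shared a full seed. miR-300-3p and miR-381-3p come from neighbouring hairpins and share a run of 14 bases that begins inside the seed. How reads that fit both were treated is not stated in the sources used here, apart from the category name of the counts, mature_unique.

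Among the 36 entries, 2 lie on the strand opposite to the cluster. They are shown with the sense arm that each overlaps, and capitals mark the complementary run.
miR-369-5p: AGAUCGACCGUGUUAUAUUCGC
miR-3578: GCGAAUAUAACACGGUCGAUCU
miR-409a-3p: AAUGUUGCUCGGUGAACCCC
miR-409b: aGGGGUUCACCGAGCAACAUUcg
Over its whole 22 bases, miR-3578 is the reverse complement of miR-369-5p, and its counts were 0.857 to 1.03 times those of miR-369-5p in every library. miR-409b is complementary to miR-409a-3p over 20 bases and held 4.36 to 11.5 times its counts. The sources used here do not say whether counting used the strand, so reads of each pair cannot be told apart and both pairs are reported as uncertain.

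**Figure D1:**
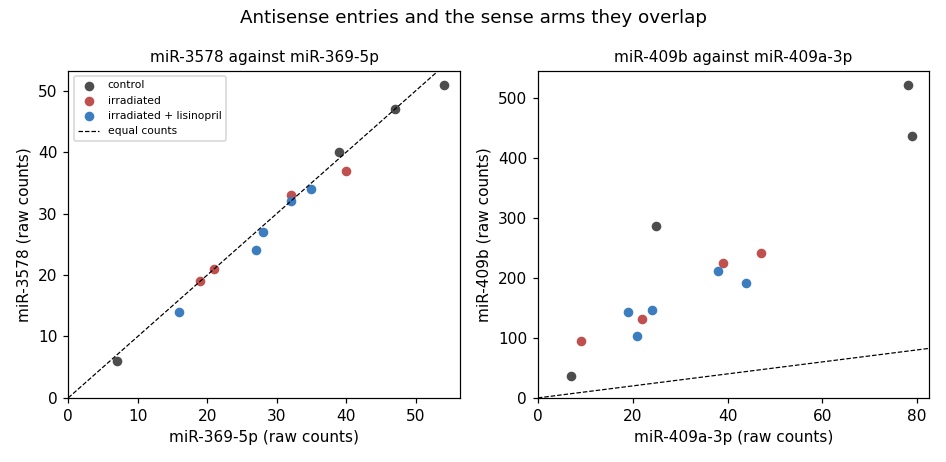
Raw counts of miR-3578 against miR-369-5p (left) and of miR-409b against miR-409a-3p (right) in each of the 13 libraries, coloured by group, with a dashed line of equal counts. Points of the first pair lie along the line, with ratios from 0.857 to 1.03, and those of the second lie above it, with ratios from 4.36 to 11.5.

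In kidneys irradiated without the drug, miR-541-5p and miR-411-5p fell to 0.589 and 0.533 times the control level. No miRNA of the group rose. Mean levels of 33 of the 36 were lower than in controls; the exceptions were miR-134-3p, miR-154-5p and miR-667-3p. A miRNA is called where its Benjamini-Hochberg adjusted p in edgeR's quasi-likelihood test, over all 419 rat miRNAs tested, is under 0.05.

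Levels of miR-541-5p were 161, 147, 159 and 219.9 CPM in control libraries 1 to 4. Irradiated libraries 1 to 4 held 105, 94.3, 124.2 and 82.2 CPM. All 4 irradiated libraries were below all 4 controls; the difference on the log2 scale was -0.76 (SE 0.159, adjusted p = 0.0216, edgeR).

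miR-411-5p, whose hairpin is the second of the cluster, stood at 117, 161, 95.6 and 157 CPM in the controls. After irradiation it was at 73.5, 52.4, 76.9 and 78.8 CPM, again with no overlap. Its log2 fold change was -0.91 (SE 0.195, adjusted p = 0.0216, edgeR).

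These were 2 calls lower among 29 tested, beside 1.19% of all tested miRNAs called lower, and 0 higher, beside 0.477%. With no adjustment, 11 had a p under 0.05, all lower, beside 10.3% of all tested miRNAs lower and 11.9% higher. With the opposite-strand entries left out of the count, 10 of 27 did. Neither call was stable to the choice of libraries. That of miR-541-5p was lost without control library 4 (adjusted p = 0.0803, edgeR), irradiated library 1 (0.0554) or irradiated library 2 (0.0656). For miR-411-5p the same happened when control library 2 (0.068) or 4 (0.083) was dropped, and when irradiated library 1 (0.0554), 2 (0.0758) or 3 (0.0576) was. The number of calls among the group was 0 without control library 4, irradiated library 1 or irradiated library 2, 1 without irradiated library 3 and 3 without control library 2. DESeq2 called 5, adding miR-300-3p, miR-409b and miR-134-5p, whereas scaling by library totals and a fit of only these 8 libraries called 0.

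Several more members had an adjusted p below 0.1 in edgeR's test without passing. miR-134-5p, known in neurons for repressing the kinase Limk1 in dendritic spines, was at 29.2, 24.5, 32.9 and 37.7 CPM in controls and at 18.1, 19.6, 24.3 and 17.5 CPM in irradiated libraries. The highest irradiated library lay just under the lowest control (log2 fold change -0.66, SE 0.178, adjusted p = 0.0709). miR-300-3p was at 40.8, 27.7, 38.2 and 54 CPM in controls and 28.8, 22.5, 28.5 and 20.9 CPM after irradiation. Control library 2 overlapped the irradiated range there (log2 fold change -0.70, adjusted p = 0.0709).

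For the first hairpin of the cluster, miR-379-5p, control libraries held 4.64, 10.6, 3.86 and 4.95 CPM and irradiated ones 3.36, 2.36, 3.07 and 2.69 CPM. Its groups did not overlap, the highest value came from the shallow control library 2, and the fitted log2 difference was -0.84 (adjusted p = 0.0885). The opposite-strand entry miR-409b went from 37, 38.3, 42 and 61.5 CPM to 24.5, 27.9, 33.6 and 16 CPM (log2 fold change -0.82, adjusted p = 0.0709). miR-376b-5p belongs to a family known for A-to-I editing of its seeds in brain. It was at 2.41 to 4.25 CPM in controls and 0.935 to 1.74 CPM after irradiation (log2 fold change -1.19, adjusted p = 0.0822). Together with the called pair, miR-134-5p, miR-379-5p, miR-409b and miR-376b-5p made 6 tested members without overlap, all lower, beside 4.53% of all tested miRNAs lower and 2.63% higher without overlap. With the opposite-strand entries left out of the count, these were 5 of 27.

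Other abundant members overlapped. miR-410-3p, the last hairpin of the cluster, was at 42.6, 45.7, 42.6 and 87.9 CPM in controls and at 33.8, 48.4, 39.2 and 29.98 CPM in irradiated libraries (log2 fold change -0.54, adjusted p = 0.227). miR-381-3p was at 28.7, 23.4, 24.6 and 54.6 CPM against 35.3, 25.8, 23.7 and 21.7 CPM (log2 fold change -0.33, adjusted p = 0.455). In both, control library 4 stood far above the other controls; without it the log2 fold change of miR-381-3p was 0.021. miR-382-5p, studied in kidney tubule cells for its part in the loss of epithelial features, was at 5.01 to 7.55 CPM in controls and 3.2 to 5.72 CPM after irradiation (log2 fold change -0.57, adjusted p = 0.18).

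**Figure D2:**
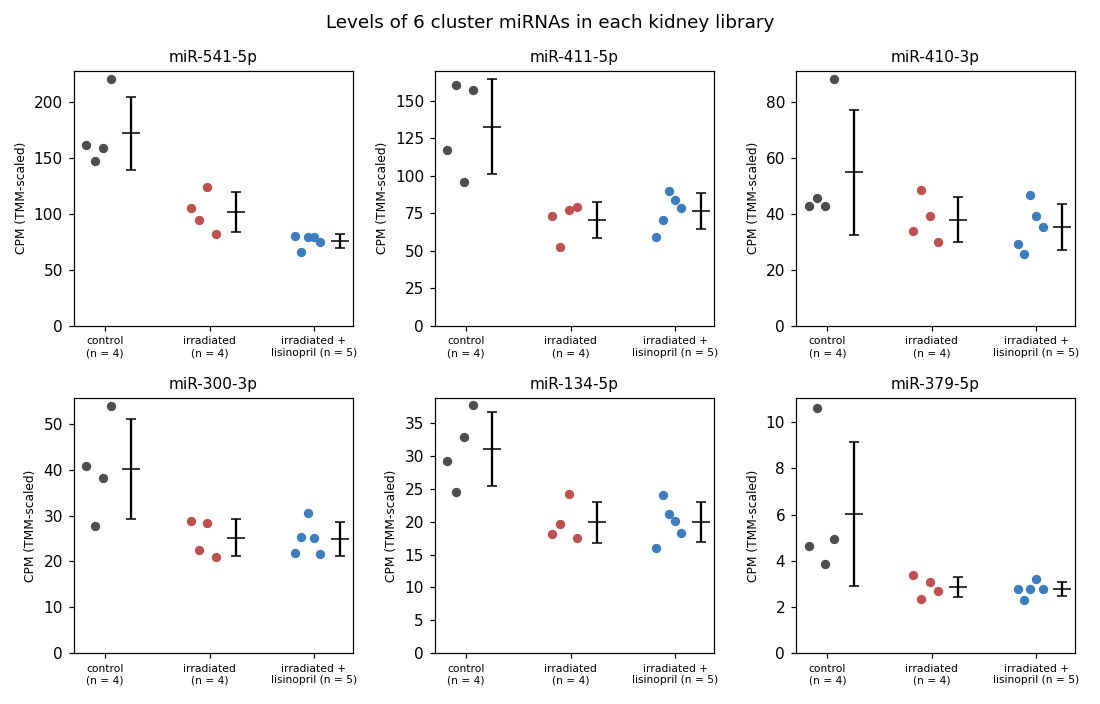
CPM of 6 miRNAs by library (points), and mean ± SD of each group: 4 control, 4 irradiated and 5 irradiated libraries with lisinopril. miR-541-5p and miR-411-5p do not overlap between the controls and either irradiated group, whereas miR-410-3p does, with control library 4 at 87.9 CPM.

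All 29 tested members had a negative log2 fold change in this comparison, from -1.19 to -0.00 with a median of -0.60, and with library totals as the scale 27 of 29 were negative with a median of -0.40. Over all 419 tested miRNAs 48.2% were negative and the median was 0.02. Scaling by totals moved the median of all tested miRNAs to 0.26, so that the distance between the members and all miRNAs was -0.62 with TMM and -0.66 with totals. Of the 29, 3 (miR-376a-5p, miR-382-3p and miR-668) reached the filter's level only with the help of the control libraries. Without a filter, all 36 could be fitted and 34 were negative. Fitted values and mean CPM differ in sign for miR-154-5p and miR-667-3p, whose fitted values of -0.20 and -0.00 were the ones nearest 0 apart from miR-487b-3p (-0.08).

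In kidneys of irradiated rats on lisinopril, 10 of the 29 tested members fell against control and none rose. They were miR-541-5p, miR-409b, miR-411-5p, miR-3578, miR-369-5p, miR-134-5p, miR-300-3p, miR-494-3p, miR-379-5p and miR-380-3p. Beside the 10 calls, 5.49% of all tested miRNAs were called lower, and 0.716% higher. All 36 had a lower mean than in controls. The groups of 8 tested members did not overlap, all 8 lower, beside 7.40% of all tested miRNAs lower and 5.97% higher. With no adjustment, 22 had a p under 0.05, all lower, beside 12.4% lower and 10.3% higher over all tested. With the opposite-strand entries left out of the count, 6 of 27 did not overlap and 20 of 27 had an unadjusted p under 0.05, all lower.

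miR-541-5p, the most abundant member, fell to 0.44 times control. Lisinopril libraries 1 to 5 held 80.0, 65.5, 78.9, 79.5 and 74.8 CPM, all below the lowest control of 147 CPM (log2 fold change -1.18, SE 0.150, adjusted p = 0.000111, edgeR). miR-409b fell to 0.397 times control, with 16.8, 15.4, 21.8, 18.6 and 16.6 CPM under the drug (log2 fold change -1.33, SE 0.213, adjusted p = 0.00107, edgeR). These are the members whose calls held under all alternatives that gave a value, 23 for miR-541-5p and 22 for miR-409b. The sense arm of the uncertain pair, miR-409a-3p, did not pass, at 3.22 to 9.2 CPM in controls and 2.2 to 4.27 CPM under the drug (log2 fold change -1.05, adjusted p = 0.0971); it passed without control library 1 (0.0434) or irradiated library 4 (0.0451).

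For miR-411-5p, lisinopril libraries were at 59.4, 70.3, 89.9, 83.7 and 78.3 CPM, below all controls (log2 fold change -0.79, adjusted p = 0.0172, edgeR). Without control library 4 its adjusted p was 0.0816. The other uncertain pair fell together. miR-369-5p went from 5.02, 7.45, 5.21 and 5.54 CPM to 2.62, 3.66, 2.79, 3.1 and 3.25 CPM (log2 fold change -0.83, adjusted p = 0.0219, edgeR), and miR-3578 changed by -0.86 on the log2 scale (adjusted p = 0.0161). Calls of this pair were lost without control library 4 (0.0674 and 0.0548), and that of miR-369-5p also without lisinopril library 3 (0.060) or 4 (0.0504). With both opposite-strand entries left out, 8 members were called.

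miR-134-5p was at 16, 24, 21.2, 20.1 and 18.3 CPM under the drug, with no overlap with control (log2 fold change -0.66, adjusted p = 0.0304, edgeR). miR-300-3p, at 21.8, 25.4, 30.6, 25.1 and 21.7 CPM, overlapped control library 2 (log2 fold change -0.71, adjusted p = 0.0308). miR-379-5p, at 2.78, 2.3, 2.79, 3.2 and 2.78 CPM, lay under every control (log2 fold change -0.88, adjusted p = 0.0418).

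Lower in level were miR-380-3p and miR-494-3p. miR-380-3p went from 3.61, 2.13, 5.59 and 4.36 CPM to 2.62, 2.4, 2.48, 2.13 and 1.04 CPM (log2 fold change -1.01, adjusted p = 0.0445, edgeR). miR-494-3p went from 3.73, 1.06, 5.11 and 3.77 CPM to 2.94, 1.15, 0.724, 1.26 and 0.927 CPM (log2 fold change -1.55, adjusted p = 0.0308). In both, the lowest control was control library 2, whose value was under its floor of 3.19 CPM, and the groups overlapped.

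Each of these 5 calls depended on single libraries or on the method. Scaling by library totals ended those of miR-134-5p (adjusted p = 0.114, edgeR), miR-300-3p (0.0979), miR-494-3p (0.0745) and miR-380-3p (0.114). With limma-voom miR-379-5p (0.0575) and miR-380-3p (0.0513) did not pass, nor did miR-380-3p without a filter (0.0504) or miR-379-5p in a fit of the 2 groups alone (0.0570). miR-134-5p was lost without control library 3 or 4 or lisinopril library 1, 3, 4 or 5 (adjusted p 0.0550 to 0.0988). Leaving out control library 1, 3 or 4 ended the call of miR-300-3p, as did lisinopril library 1, 2, 4 or 5 (0.0513 to 0.119). For miR-494-3p these were the same controls and lisinopril library 2, 3, 4 or 5 (0.0550 to 0.110). miR-379-5p was lost without control library 1 or 4, irradiated library 1 or 3 or any lisinopril library (0.0506 to 0.0988). The same held for miR-380-3p, and for control library 3 as well (0.0525 to 0.150). The filter was rerun in each refit, so the number of members tested varied. Calls ranged from 2 of 28 members without control library 4 to 14 of 31 without control library 2. There were 6 calls without control library 3, 5 without lisinopril library 3 or 5 and 4 without lisinopril library 4.

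Log2 fold changes of the 29 tested members ran from -1.55 to -0.26 with a median of -0.85, all negative, beside 43.0% of all tested miRNAs and a median of 0.05. Here too, miR-376a-5p, miR-382-3p and miR-668 were among the 29 only with the help of the control libraries. Without a filter, all 36 could be fitted and 36 were negative. Both comparisons with control use the same 4 control libraries. Values of each can therefore be set side by side but do not check each other. Over the 29, the plot of differences in cluster order shows no hairpin above 0 in either.

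**Figure D3:**
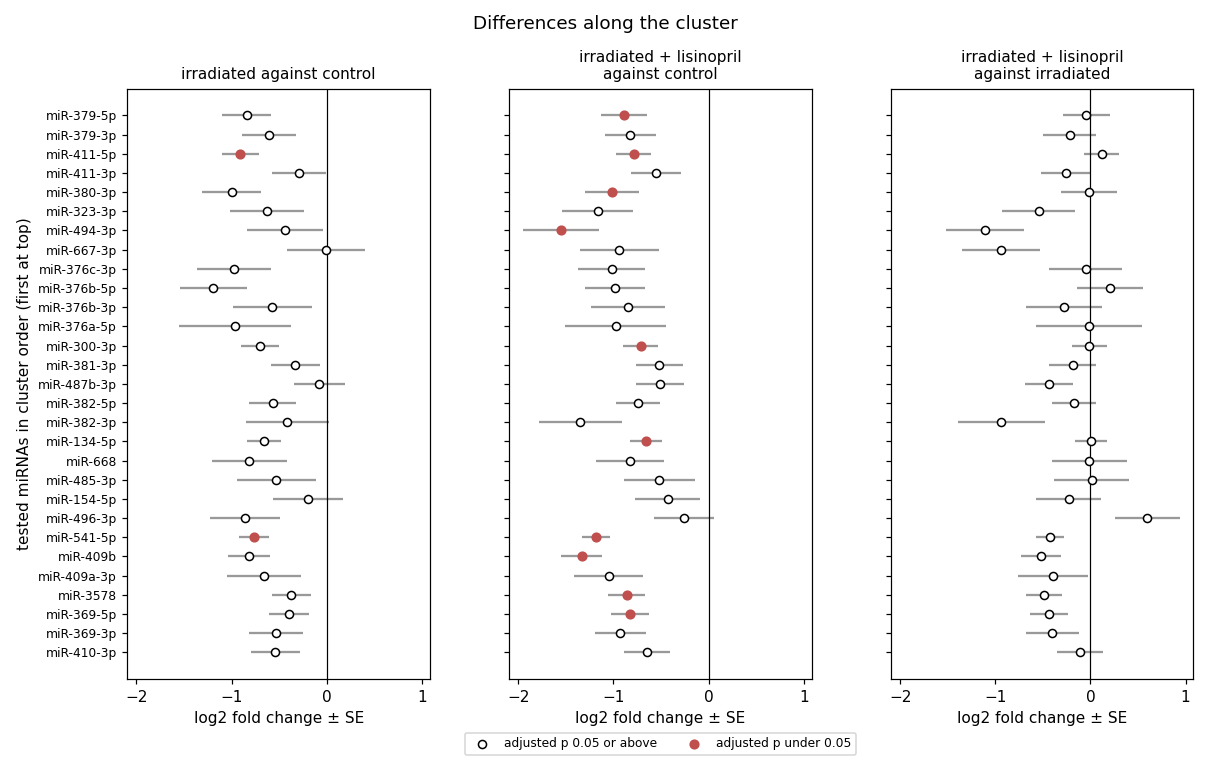
Log2 fold change ± SE of the 29 tested miRNAs in cluster order, first hairpin at the top, for the 3 comparisons; filled points passed the test. All points lie below 0 against control in both irradiated groups, with 2 and 10 filled, and between the irradiated groups 24 lie below and 5 above 0, with none filled.

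Between irradiated kidneys with and without lisinopril, no member passed the test: 0 of 29 were called, beside 0% of all 419 tested miRNAs in either direction (edgeR). With no adjustment, 6 of the 29 had a p under 0.05, all lower, beside 8.11% of all tested miRNAs lower and 6.92% higher. With the opposite-strand entries miR-3578 and miR-409b left out of the count, 4 of 27 did. DESeq2 called 1 member, miR-541-5p. Without irradiated library 4, edgeR called 3 lower: miR-541-5p, miR-409b and miR-494-3p, each at an adjusted p = 0.0386.

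The nearest was miR-541-5p, lower in all 5 lisinopril libraries (65.5 to 80.0 CPM) than in any of the 4 irradiated ones (82.2 to 124.2 CPM). Its log2 fold change was -0.42 (95% interval -0.74 to -0.10, adjusted p = 0.232, edgeR). It was the 1 tested member without overlap, beside 2.15% of all tested miRNAs without overlap in each direction. Of the other 5 with an unadjusted p under 0.05, miR-409b had a log2 fold change of -0.52 (-0.97 to -0.07), miR-3578 of -0.49 (-0.90 to -0.08) and miR-369-5p of -0.43 (-0.85 to -0.02), with adjusted p-values of 0.261, 0.249 and 0.307. miR-667-3p was at -0.94 (-1.81 to -0.06, adjusted p = 0.29); this miRNA and miR-496-3p, miR-376b-5p, miR-382-5p, miR-136-3p and miR-434-3p were named after their values were seen. miR-494-3p was at -1.11 (-1.98 to -0.24, adjusted p = 0.248); irradiated libraries held 4.11, 3.23, 3.07 and 1.18 CPM and 4 of the 5 lisinopril libraries held 0.724 to 1.26 CPM.

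Other named members lay nearer 0. miR-411-5p was at 0.12 (-0.27 to 0.51), miR-379-5p at -0.04 (-0.57 to 0.48) and miR-380-3p at -0.01 (-0.65 to 0.62). miR-300-3p was at -0.01 (-0.41 to 0.38) and miR-134-5p at 0.00 (-0.35 to 0.36). These intervals do not exclude changes of the size seen for miR-541-5p, except for miR-411-5p, miR-134-5p and miR-300-3p, whose lower bounds lie above -0.42. Whether position in the cluster matters was not tested; miR-496-3p, the entry just before miR-541-5p, was at 0.60 (-0.13 to 1.33, adjusted p = 0.407), and miR-410-3p at its end was at -0.11. Across the group 24 of 29 values were negative (27 when scaled by library totals, which moved the median of all tested miRNAs by over 0.1 to -0.21), with a median of -0.22.

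Raw counts of miR-541-5p over those of miR-411-5p do not depend on the scaling. The ratio was 1.38, 0.914, 1.66 and 1.4 in control libraries 1 to 4 and 1.43, 1.8, 1.62 and 1.04 in irradiated libraries. Under lisinopril it was 1.35, 0.932, 0.878, 0.95 and 0.954. Lisinopril libraries 2 to 5 lay below all irradiated libraries, while library 1 and control library 2 broke the separation. The pair was chosen after its values were seen.

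**Figure D4:**
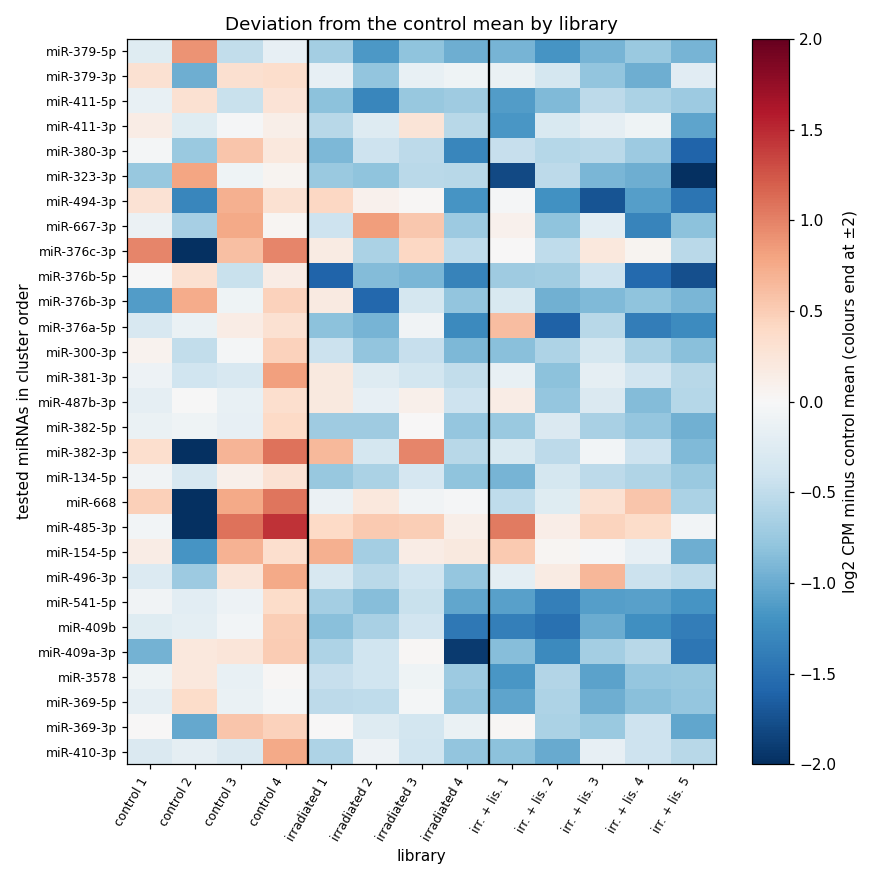
Log2 CPM of each tested miRNA minus its mean in the 4 controls, by library, in cluster order; blue is lower, red higher, and colours end at ±2. Most cells of the 9 irradiated libraries are blue, and within the controls library 4 is mostly red; library 2 is more than 2 below at miR-376c-3p, miR-382-3p, miR-668 and miR-485-3p, which it held at 0.

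Both arms were tested for 5 hairpins, and arms of a hairpin share a precursor. For Mir411, the 5p arm held 92.5% to 97.4% of the counts of the pair in every library, and against control its log2 fold change after irradiation was -0.91 while that of miR-411-3p was -0.29 (adjusted p = 0.544). The corresponding values for Mir379 were -0.84 for the 5p and -0.60 for the 3p arm, and for Mir376b -1.19 and -0.57. Mir382 had -0.57 and -0.41, and Mir369 -0.39 and -0.53. In this comparison miR-411-5p was the 1 of these 10 arms to pass; whether arms differ was not tested. Control means were at most 5.12 CPM for the 3p arms of these 5. For the 5p arms other than miR-411-5p they were 3.45 to 6.02 CPM, so that counts of all these arms were small.

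As a share of all rat miRNA counts, which needs no scaling factor, the 36 together made up 0.0428% to 0.0720% in controls, 0.0317% to 0.0485% after irradiation and 0.0271% to 0.0347% under lisinopril. All 5 lisinopril libraries lay below all 4 controls, and irradiated libraries overlapped the controls. The widest 95% Wilson interval was that of control library 2, from 0.0392% to 0.0467%. With miR-3578 and miR-409b left out the ranges were 0.0393% to 0.0658%, 0.0298% to 0.0441% and 0.0254% to 0.0324%.

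The miRNAs of the region before the snoRNA block were read beside these, with no test between the sets. Of 9 listed entries 6 were tested, and 1 of these, miR-3570, is annotated on another chromosome in GRCr8 and is left aside. Among the remaining 5, miR-127-3p and miR-341 rose and miR-770-5p fell under lisinopril against control, and none passed in the other comparisons (edgeR). These were 2 higher and 1 lower of 5, beside 0.716% and 5.49% of all tested miRNAs. miR-127-3p, which lies antisense to the retrotransposon-like gene Rtl1 and can direct its cleavage, was at 16.4, 17.0, 17.4 and 16.5 CPM in controls and 19.4, 29.2, 19.7 and 21.6 CPM after irradiation. Under lisinopril it was at 27.6, 32.7, 39.6, 41.9 and 34.7 CPM, above every control (log2 fold change 1.07, adjusted p = 0.00107). miR-341 went from 0.675 to 1.06 CPM in controls to 0.94 to 2.52 CPM, a log2 difference of 1.32 (adjusted p = 0.0413). It lost its call when control library 1, 3 or 4, irradiated library 3 or lisinopril library 1, 3, 4 or 5 was left out (0.0525 to 0.121), with DESeq2 (0.0529) and with limma-voom (0.114). miR-770-5p, at 244 CPM in control library 2 and 2.7 to 4.64 CPM in the other controls, was at 0.097 to 1.47 CPM under lisinopril. Its log2 fold change was -7.07 (adjusted p = 0.0115, edgeR) and, without control library 2, -3.07 (0.0384). It did not pass with limma-voom (0.0636) or robust dispersion (0.0527). Of the uncalled pair, miR-136-3p had log2 fold changes of -0.74 after irradiation (adjusted p = 0.233), 0.91 between the irradiated groups (0.229), where it did not overlap, and 0.17 under lisinopril against control (0.822). miR-434-3p was at 0.37, -0.09 and 0.28.

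Within a library, miR-541-5p held 9.87, 8.62, 9.16 and 13.3 times the counts of miR-127-3p in controls 1 to 4. After irradiation the ratio was 5.41, 3.23, 6.31 and 3.81, and under lisinopril 2.89, 2, 1.99, 1.9 and 2.16. The 3 groups did not overlap. For miR-411-5p the ratio was 5.51 to 9.53 in controls, 1.8 to 3.91 after irradiation and 2 to 2.27 under lisinopril, where the irradiated groups overlapped. These pairs were chosen after their values were seen, and no test was made.

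**Figure D5:**
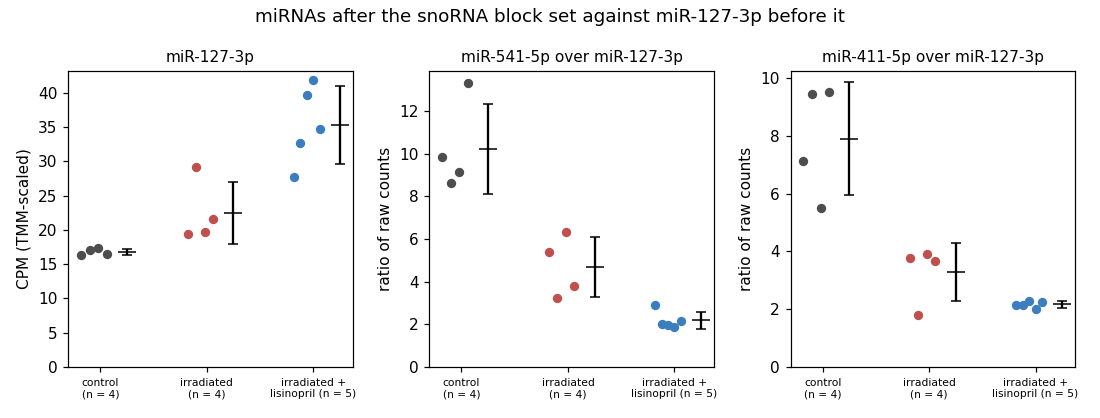
CPM of miR-127-3p (left) and ratios of raw counts of miR-541-5p (middle) and miR-411-5p (right) to miR-127-3p by library (points), and mean ± SD of each group. The ratio for miR-541-5p lies at 8.62 or above in controls, between 3.23 and 6.31 after irradiation and at 2.89 or below under lisinopril.

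A further miRNA of the same stretch that the rule did not take, miR-1193-3p between Mir494 and Mir543, was looked at after its values were seen. It was at 1.74 to 2.59 CPM in controls, 0.496 to 1.67 CPM after irradiation and 0.522 to 1.03 CPM under lisinopril. It fell in the last against control (log2 fold change -1.53, adjusted p = 0.00838, edgeR). Another entry that the rule did not take, miR-666-3p, was looked at too and was too low to be tested. Its ranges overlapped, at 0.129 to 3.19 CPM in controls, 0.168 to 1.40 CPM after irradiation and 0.207 to 0.654 CPM under lisinopril.

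Because neural and endocrine tissue is rich in this cluster, markers of other cell types were read beside it. The 7 neural and endocrine entries (arms of miR-128, miR-375, miR-7a and miR-9a) summed to 2023 to 2360 CPM in controls, 2062 to 2560 CPM after irradiation and 1777 to 2247 CPM under lisinopril. The ranges overlapped between all groups, but lisinopril libraries 3 to 5 (1777, 1910 and 1946 CPM) lay below every control and every irradiated library. Lisinopril libraries 1 and 2 (2170 and 2247 CPM) did not. None of the 7 entries passed in any comparison, and none was at 0 in any library. The planned list also named miR-124 and miR-137, but none of the 7 entries came from them. The 7 fibroblast and smooth muscle entries summed to 28822 to 40902, 33112 to 38565 and 27926 to 56018 CPM, and the 6 leukocyte entries to 651 to 979, 802 to 1235 and 644 to 1404 CPM. Endothelial (2 entries), erythroid (4) and striated muscle (2) sums overlapped between all groups too. For the endothelial sum, controls held 11645 to 14615 CPM. Irradiated libraries 1 to 3 (9999, 8536 and 10343 CPM) and lisinopril library 1 (10146 CPM) lay below every control, while irradiated library 4 (14043 CPM) did not. Of all these lists, kidney tubule included, 1 entry passed in any comparison: miR-10a-3p, lower under lisinopril than in controls. Their part in the differences of the cluster was not tested.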

How the data were processed

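Small RNA libraries were made from 1 ug of total RNA of 13 kidneys with a TruSeq kit, per the labels' protocols. The submitters' processing notes name Trim Galore 0.2.5, Bowtie 1.1.1 and the rn4 genome; the counting step, strand use and multiply mapping reads are not described there. Whole-number counts, as the authors deposited them, were taken for 460 rat mature miRNAs, the entries of the category mature_unique. GRCr8 annotation served for names, order and mature sequences, with no coordinates.

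Tests used edgeR 4.0.16 (R 4.3.3). filterByExpr left 419 miRNAs (at least 1.18 CPM in at least 4 libraries), TMM factors ran from 0.787 to 1.19, and the 3 group means were estimated together from all 13 libraries by quasi-likelihood. The common biological coefficient of variation was 0.247. Benjamini-Hochberg adjustment covered all 419. Standard errors and 95% intervals come from this fit. CPM are counts over TMM-adjusted totals; on the log2 scale a prior count of 2 was added. Depth ranged from 1194175 to 11095939 counts per library, and small totals widen the error of low members. The procedure was tested on simulated data with the same spread for every miRNA and changes given to miRNAs picked at random. It was not tested on a cluster that changes together.

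Alternatives were RLE factors, library totals, no filter, a floor of 10 mean CPM, limma-voom (limma 3.58.1), DESeq2 1.42.0, robust dispersion, a fit of the 2 groups alone, library sizes leaving out the top miRNA, each library left out, and, added after the data were seen, both opposite-strand entries left out. The members and lists were chosen with earlier results of these data known. Named were members called in any comparison, the 8 most abundant and the 3 with the smallest p per comparison, and, before the snoRNA block, those called and the 2 most abundant. Replicate numbers follow the order of deposit and pair nothing.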

Additional observations from a re-analysis of the deposited data

Results flagged for a closer look

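A test for a single library far from the rest of its group (Dixon's, at 95%) was run on 54 groups of 4 or 5 libraries, of which chance sets apart about 1 in 20; 7 were set apart. In control library 4, miR-410-3p stood at 87.9 CPM, where the other controls held 42.6 to 45.7 CPM, and miR-381-3p at 54.6 CPM against 23.4 to 28.7 CPM. In control library 2, miR-379-5p was at 10.6 CPM against 3.86 to 4.95 CPM, and miR-770-5p at 244 CPM against 2.7 to 4.64 CPM. In lisinopril library 1, miR-494-3p was at 2.94 CPM against 0.724 to 1.26 CPM, and miR-770-5p at 1.47 CPM against 0.097 to 0.348 CPM. miR-3570, which is annotated outside the region, was at 131 CPM in lisinopril library 3 against 108 to 112 CPM.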

How the results depend on the processing

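Calls of members lower after irradiation numbered 2 and became 5 with DESeq2, 0 with library totals and 0 in a fit of only the 2 groups; leaving out single libraries gave 0 to 3. Between the irradiated groups the 0 calls became 1 with DESeq2 and 0 to 3 with a library left out. Lisinopril against control gave 10 calls, 6 with library totals, 8 with limma-voom, 9 with no filter, 5 with a mean of at least 10 CPM (which left 7 members) and 2 to 14 with a library left out. No alternative called a member higher. The members' median moved from -0.60 to -0.40 after irradiation and from -0.22 to -0.40 between the irradiated groups with library totals. Over all tested miRNAs, calls after irradiation ranged from 0 to 25 lower and 1 to 35 higher (main 5 and 2), between the irradiated groups from 0 to 27 lower and 0 to 20 higher (main 0 and 0), and under lisinopril against control from 11 to 27 lower and 2 to 17 higher (main 23 and 3).

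For named members the 12 called results kept direction in all 269 refits and lost their call in 64. The 27 results that were not called passed in 11 of 589 refits and changed sign in 28, of which 27 were between the irradiated groups, where values lay near 0. There, miR-134-5p became -0.018 with RLE factors, -0.19 with library totals, -0.059 with a mean of at least 10 CPM and -0.0027 with only the 2 groups, and ranged from -0.092 to 0.11 with a library left out. miR-411-5p became -0.071 with library totals (-0.012 to 0.20 with a library left out). With library sizes that leave out the most abundant miRNA, miR-300-3p became 0.014, miR-380-3p 0.021 and miR-3570 0.00016; with a library left out they ranged from -0.11 to 0.048, -0.20 to 0.16 and -0.11 to 0.036. Such ranges were -0.23 to 0.025 for miR-410-3p and -0.14 to 0.0033 for miR-379-5p, and for miR-381-3p after irradiation -0.46 to 0.021. The cause of these changes was not tested. Depth limits the 18 members under the floor of control library 2. No paired analysis was possible because the labels name no litter, batch or pairing that links libraries across the groups.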
